A study of Mus musculus with 8 samples.

Results

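9 long non-coding RNAs that respond to stress or carry small nucleolar RNAs (snoRNAs) were followed in mouse embryonic stem cells (mESCs). The rule took the rows of the count tables under the symbols Gas5, Snhg1, Snhg3, Snhg5, Snhg12, Neat1, Malat1, Pvt1 and Trp53cor1. It found 9 of 9, among 23420 gene symbols in all. 8 stood under their own symbol, and Trp53cor1, also known as lincRNA-p21, stood under the older symbol Gm16197, which RefSeq lists as a synonym. The cells were IPO13+/+ or IPO13-/- embryonic stem cells, derived from blastocysts of a 129 x C57BL/6 background and grown with the cytokine LIF on gelatin without feeder cells. IPO13 (Importin-13) carries proteins into and out of the nucleus. Each genotype was cultured untreated or exposed to 125 µM H2O2 for 1 h and then given 2 h in clean medium before RNA was taken. This gave 4 groups of 2 libraries, and the study asked which genes depend on IPO13 under oxidative stress. The study describes 1 line of each genotype, so a difference between the genotypes and a difference between the lines cannot be told apart. Nothing in the labels says that the 2 libraries of a group came from separate cultures, so the tests measure the spread between these libraries, which may be technical.

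SnoRNA host genes are transcribed by RNA polymerase II, spliced, and broken down in the cytoplasm. The snoRNAs are cut from their introns and guide the chemical modification or processing of ribosomal RNA. The spliced host RNAs carry short reading frames, and several are removed by nonsense-mediated decay, so that their level responds to translation and growth. Many of them start with a pyrimidine tract like that of ribosomal protein genes. Neat1 is the scaffold of paraspeckles, nuclear bodies that grow under stress. Malat1 lies in nuclear speckles, where splicing factors are stored. Pvt1 lies beside the Myc gene, and Trp53cor1 lies beside Cdkn1a, the gene of the cell cycle inhibitor p21, and is a known p53 target.

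GENCODE M21 (GRCm38, the build called mm10 in the files) places 27 snoRNA entries inside the 5 host genes, 10 in Gas5, 8 in Snhg1, 5 in Snhg12, 2 in Snhg3 and 2 in Snhg5. Of these, 21 are of the C/D type, taken by their name or a length under 100 bases, a type that mostly guides methylation. The other 6 are of the H/ACA type, which mostly guides pseudouridylation, though Snora73a and Snora73b of Snhg3 serve in ribosomal RNA processing. Snord80 and Snora16a are each annotated by a pair of overlapping entries. The sequences below are those of snoRNAs described with counts further on, of the near-identical pair of Snhg5, and of Snora73a of Snhg3, so that each host is shown with what it carries. Capitals mark the C box (TGATGA) and the last D box (CTGA) of C/D snoRNAs, or the H box (ANANNA) nearest the middle and the ACA near the 3′ end of an H/ACA snoRNA.
Snord47 (Gas5, chr1:161038082-161038158, plus strand): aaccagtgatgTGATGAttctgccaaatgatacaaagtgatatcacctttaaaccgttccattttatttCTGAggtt
Snord22 (Snhg1, chr19:8725866-8725991, plus strand): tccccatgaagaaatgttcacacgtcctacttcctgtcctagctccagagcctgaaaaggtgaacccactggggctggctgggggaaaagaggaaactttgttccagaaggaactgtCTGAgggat
Snord50a (Snhg5, chr9:88521529-88521600, minus strand): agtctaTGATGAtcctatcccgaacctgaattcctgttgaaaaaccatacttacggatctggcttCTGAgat
Snord50b (Snhg5, chr9:88521797-88521868, minus strand): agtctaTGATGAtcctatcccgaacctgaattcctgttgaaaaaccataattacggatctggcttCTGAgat
Snora73a (Snhg3, chr4:132352775-132352979, minus strand): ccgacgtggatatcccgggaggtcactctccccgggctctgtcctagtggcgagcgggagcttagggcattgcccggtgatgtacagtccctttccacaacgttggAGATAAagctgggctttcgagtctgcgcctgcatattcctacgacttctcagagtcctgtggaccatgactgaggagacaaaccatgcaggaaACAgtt
Snora61 (Snhg12, chr4:132310240-132310369, plus strand): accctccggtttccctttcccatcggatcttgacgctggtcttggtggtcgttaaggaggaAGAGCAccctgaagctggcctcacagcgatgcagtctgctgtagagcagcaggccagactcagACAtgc
Snord99 (Snhg12, chr4:132310691-132310764, plus strand): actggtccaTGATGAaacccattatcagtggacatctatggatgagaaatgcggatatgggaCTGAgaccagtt
The letters of the C box were found near the 5′ end of Snord47, Snord50a, Snord50b and Snord99, and not in Snord22. Snord50a and Snord50b differ at 1 of 72 bases, C50A, with positions counted from 1 at the 5′ end of Snord50a. Snora73a and its neighbour Snora73b differ at 7 of 205 bases.

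A pyrimidine tract that begins with C near the annotated start of transcription, which the choice of names did not use, was looked for in the hosts. By this rule it was found in all but Snhg1, and for Gas5 only in the second of its 2 windows. The Snhg1 window shown holds a run of pyrimidines near the start that begins with T, which the rule does not count. RefSeq (GRCm38.p6) start windows, 300 bases from 250 before to 50 after the annotated start, were at hand for 6 of the 9 RNAs in 7 windows, 2 of them for Gas5. The 100 bases around the start of the 5 hosts are shown 5′ to 3′, with the second window for Gas5, and capitals mark a C followed by at least 4 pyrimidines that begins within 10 bases of the start.
Gas5 (chr1:161035116-161035215, plus strand): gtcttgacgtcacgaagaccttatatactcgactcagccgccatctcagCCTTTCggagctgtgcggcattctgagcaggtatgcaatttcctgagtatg
Snhg12 (chr4:132308628-132308727, plus strand): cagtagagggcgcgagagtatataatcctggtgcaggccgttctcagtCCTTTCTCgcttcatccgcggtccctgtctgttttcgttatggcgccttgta
Snhg3 (chr4:132353637-132353736, minus strand): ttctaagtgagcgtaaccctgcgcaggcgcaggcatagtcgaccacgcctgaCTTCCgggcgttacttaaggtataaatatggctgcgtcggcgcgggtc
Snhg5 (chr9:88522848-88522947, minus strand): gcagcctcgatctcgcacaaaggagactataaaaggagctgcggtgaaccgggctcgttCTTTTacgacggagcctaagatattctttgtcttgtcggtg
Snhg1 (chr19:8723437-8723536, plus strand): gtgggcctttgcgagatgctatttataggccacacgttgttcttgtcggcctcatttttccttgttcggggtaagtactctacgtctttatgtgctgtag
Such a tract stood in 4 of the 7 windows, those shown for Gas5, Snhg12, Snhg3 and Snhg5, against 30.7% of all 32851 windows of the same length. It was 8 bases long in Snhg12, 6 in Gas5 and 5 in Snhg3 and Snhg5. With the annotated start counted as 1, its first base lay at -2 in Snhg12, -1 in Gas5, 3 in Snhg3 and 10 in Snhg5. SP1 and KLF4 are transcription factors that the study examined, and their core letters were counted in the 300 bases on both strands. GGGCGG, read by SP1, occurred in 4 of the 7 windows (both of Gas5, Snhg1 and Snhg5), against 35.7% of all windows. CACCC, the core that KLF4 reads, occurred in 1 window, the first of Gas5, against 57.5%. CACGTG, read by Myc, occurred in 0 of the 7 windows, against 7.15%. Matches of letters describe these windows and show no binding.

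The libraries held between 60397877 and 73789079 counted reads, so that 3 counts correspond to between 0.0407 and 0.0497 CPM, the counts scaled to a common library size. Such floors cover counting error only. Values below are CPM scaled with the TMM factors of edgeR, which lay between 0.9697 and 1.028. Ipo13 itself, the deleted gene, had 69.3 ± 1.39 CPM (SD, n = 2) in untreated IPO13+/+ cells and 25.5 ± 0.636 in untreated IPO13-/- cells, a log2 fold change of -1.44 ± 0.049 (SE). In treated cells it had 70.87 ± 2.2 and 25.4 ± 0.753. All libraries thus stood with their genotype labels, and counts of the gene remained. Its levels were alike with and without H2O2, so they do not check the labels of treatment. The 12 pluripotency markers summed to between 7289 and 8679 CPM per library, 8117 or more in the IPO13+/+ and 7487 or less in the IPO13-/- libraries. Abundant genes weigh most in this sum, such as Dppa5a with 1942 CPM in untreated IPO13+/+ and 1294 in untreated IPO13-/- cells. At a false discovery rate below 0.05, 5 of the 12 were lower and 3 higher in untreated IPO13-/- cells, and 4 did not pass. In treated ones 3 were lower, 2 were higher and 7 did not pass. The summed CPM lay between 275.5 and 367.4 for 8 primed epiblast and mesoderm markers, between 15.94 and 24.05 for 7 primitive endoderm markers, between 86.71 and 103.5 for 6 trophectoderm markers and between 6.246 and 9.23 for 6 fibroblast markers. The trophectoderm sum joins opposite differences. In untreated IPO13-/- cells Krt8 and Krt18 were lower (log2 fold changes of -1.25 and -0.89) and Tfap2c was higher (0.86), and the other 3 did not pass. Cytosolic ribosomal protein genes held between 6.355% and 7.346% of the counts, with the lowest shares in the untreated IPO13-/- libraries (6.355% and 6.598%). The part of these differences in the results below was not tested.

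Per kilobase of annotated exon, Gas5 had the highest level of the 9 RNAs in untreated IPO13+/+ cells, with 92.1 ± 8.59 CPM per kb. Malat1 followed with 70.57 ± 0.0655, Snhg1 with 56.56 ± 4.1, Snhg5 with 52.54 ± 1.28 and Snhg3 with 45.4 ± 0.0571. Snhg12 stood at 14.3 ± 0.289. Neat1 (2.683 ± 0.128), Pvt1 (1.977 ± 0.162) and Trp53cor1 (0.07461 ± 0.0244) were the lowest. Snhg1 and Snhg5 did not differ beyond their SD. In treated IPO13-/- cells Malat1 (62.69 ± 11.2) and Gas5 (59.62 ± 2.56) lay within their SD of each other, and the other ranks were as in untreated IPO13+/+ cells. The order rests on the length used, and with the longest transcript Snhg3 and Snhg5 ranked between Gas5 and Malat1. The kit selected RNA with a poly(A) tail. Malat1 and the long form of Neat1 end without such a tail, and their counts are levels in this kind of library only.

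**Figure D1:**
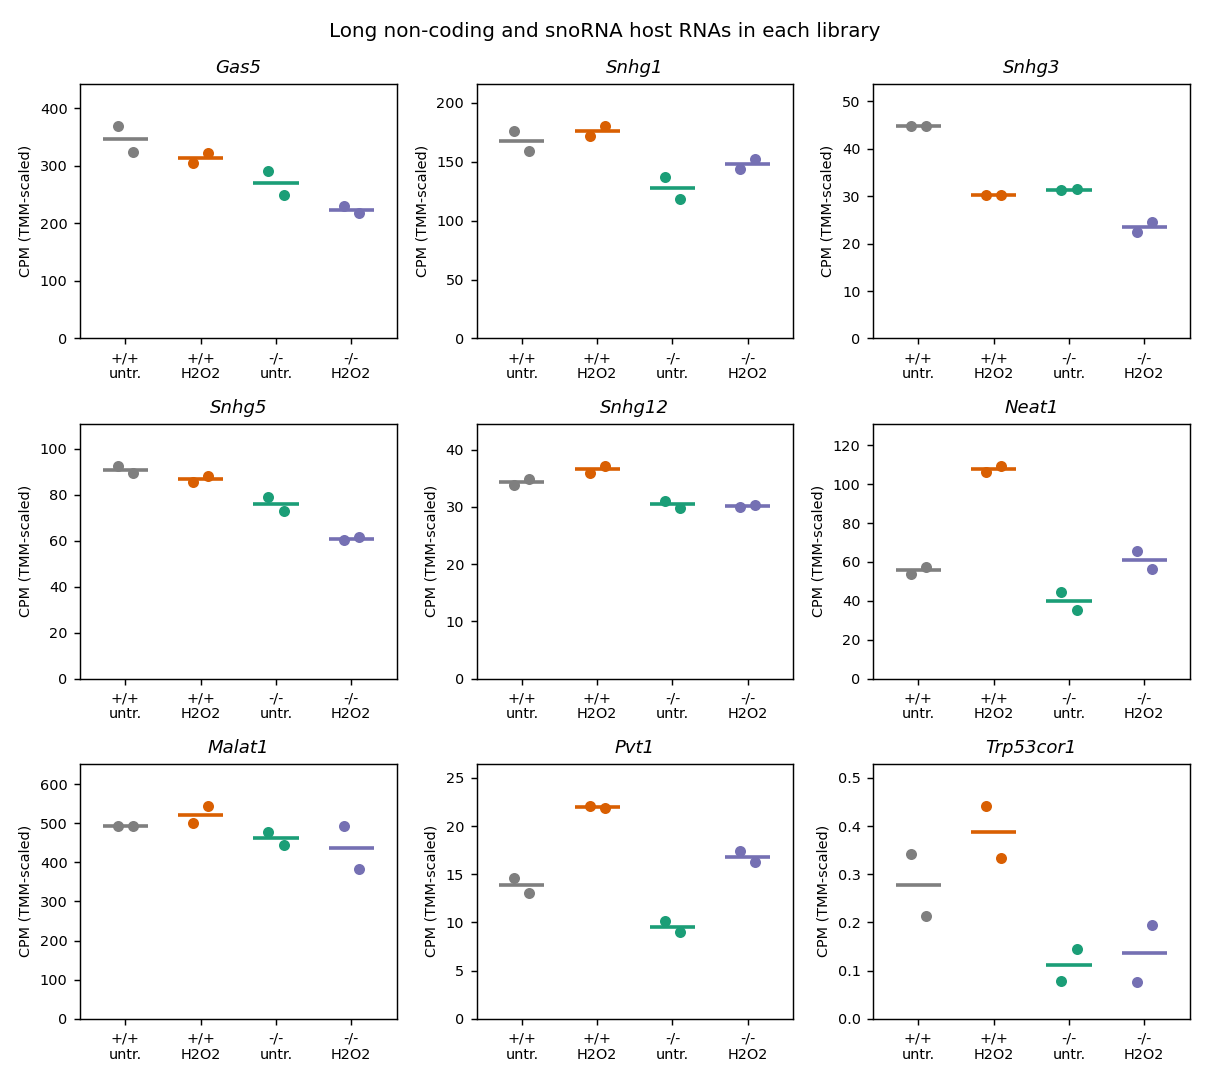
Each panel plots 1 RNA, with TMM-scaled CPM from 0 on the vertical axis and the 4 groups on the horizontal axis (+/+ and -/- for the IPO13 genotype, untr. for untreated, H2O2 for treated). Points are the 2 libraries of a group and bars their mean. Neat1 stood at 106.3 and 109.2 CPM in the treated IPO13+/+ libraries and at 65.7 or less in all others, and for every RNA both untreated IPO13-/- points lay below both untreated IPO13+/+ points.

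H2O2 raised 2 of the 9 RNAs in IPO13+/+ cells, Neat1 and Pvt1, and lowered 1, Snhg3. The other 6 did not pass the test, a false discovery rate (FDR) below 0.05 over 19424 genes by edgeR's quasi-likelihood method. Of all tested genes 11.5% rose and 13.8% fell in that comparison, and of the genes with a mean of at least 10 CPM, as 8 of the 9 RNAs have, 13.2% rose and 25.2% fell. In IPO13-/- cells 3 rose (Pvt1, Neat1 and Snhg1), 3 fell (Snhg3, Snhg5 and Gas5) and 3 did not pass, with 14.9% of all tested genes rising and 14.4% falling, or 21.5% and 22.8% of those of at least 10 CPM. The median log2 fold change of the 9 was 0.08 in IPO13+/+ and -0.02 in IPO13-/- cells, and over all tested genes -0.001 and 0.000.

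All 9 RNAs had lower estimates in IPO13-/- cells. In untreated cells 8 of 9 passed and all 9 had groups that did not overlap, with a median log2 fold change of -0.39. Of all tested genes 19.4% were lower and 18.7% higher past the test, with a median of 0.000, and 31.5% had both IPO13-/- libraries below both IPO13+/+ libraries. In treated cells 9 of 9 were lower past the test, with a median of -0.38, where 17.5% of all genes were lower and 19.1% higher. Genes with a mean of at least 10 CPM, as 8 of the 9 have, passed more often, and 30.9% of these 8620 genes were lower in untreated and 23.5% in treated IPO13-/- cells. Only Trp53cor1 changed by at least 2-fold, in both genotype comparisons, as 1.84% of all genes did downward in untreated and 1.98% in treated cells. The comparisons share libraries, so that the untreated IPO13-/- libraries enter both the response to H2O2 and the untreated genotype difference. Of the differences between the responses (the interaction), 1 of 9 passed, that of Snhg5, where 2.71% of all genes did.

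**Figure D2:**
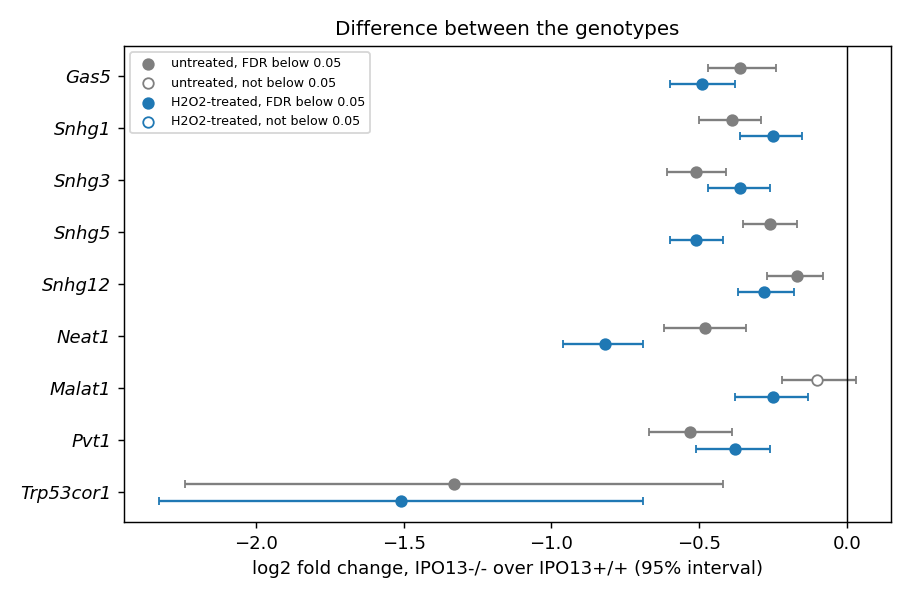
Log2 fold changes of IPO13-/- over IPO13+/+ cells are plotted on the horizontal axis for the 9 RNAs, in grey for untreated and blue for H2O2-treated cells, with 95% intervals as bars. Filled points have an FDR below 0.05. All points lie below 0, and the only open one is Malat1 in untreated cells (-0.10).

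Gas5 (growth arrest-specific transcript 5; chr1:161034422-161038539, plus strand) is the host of Snord47 and other C/D snoRNAs, and its spliced RNA builds up when growth stops. It was counted at 369.2 and 323.5 CPM in untreated IPO13+/+ libraries and 305.9 and 323 after H2O2, and at 291 and 250 in untreated IPO13-/- libraries and 230.9 and 217.4 after H2O2. Every IPO13-/- library lay below every IPO13+/+ library. The genotype difference was -0.36 ± 0.057 on the log2 scale (SE; FDR 1.3e-05) in untreated and -0.49 ± 0.058 (FDR 1.1e-07) in treated cells. After H2O2, Gas5 fell by 0.27 ± 0.058 in IPO13-/- cells (FDR 0.00058), a call lost without untreated IPO13-/- replicate 1 (-0.15, FDR 0.19). In IPO13+/+ cells the value was -0.14 (95% interval -0.25 to -0.03, FDR 0.077), and without untreated IPO13+/+ replicate 2 it was -0.23 with an FDR of 0.00097. The interaction was -0.13 (FDR 0.48), and it lay between -0.24 and -0.04 when single libraries were left out, passing without untreated IPO13+/+ replicate 1 (-0.23, FDR 0.039).

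Snhg1 (chr19:8723475-8726443, plus strand) hosts 8 snoRNA entries, Snord22 among them. Its CPM was 176.5 and 159.3 in untreated IPO13+/+ libraries and 172.3 and 180.3 after H2O2, then 137.2 and 118.2 in untreated IPO13-/- libraries and 143.7 and 152.1 after H2O2. The IPO13-/- libraries again lay below all IPO13+/+ libraries, and the 2 groups of IPO13+/+ cells overlapped. Snhg1 was lower in untreated IPO13-/- cells by a log2 fold change of -0.39 ± 0.055 (FDR 1.8e-06) and in treated ones by -0.25 ± 0.055 (FDR 0.00054). It rose after H2O2 in IPO13-/- cells by 0.21 ± 0.056 (FDR 0.0046). That call was lost without untreated IPO13-/- replicate 2 (0.13, FDR 0.2) or treated replicate 2 (0.18, FDR 0.063). In IPO13+/+ cells the value was 0.07 (95% interval -0.04 to 0.18, FDR 0.42), and it passed without untreated replicate 1 (0.15, FDR 0.047).

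Snhg3 (chr4:132348014-132353686, minus strand) hosts Snora73a and Snora73b, H/ACA RNAs that serve in ribosomal RNA processing. It had 44.8 and 44.72 CPM in untreated IPO13+/+ libraries and 30.35 and 30.25 after H2O2, and 31.29 and 31.55 in untreated IPO13-/- libraries and 22.52 and 24.6 after H2O2. Treated IPO13+/+ and untreated IPO13-/- cells stood at nearly the same level, with the untreated IPO13+/+ libraries above and the treated IPO13-/- libraries below. Snhg3 fell after H2O2 in both genotypes, by 0.56 ± 0.05 in IPO13+/+ (FDR 9.2e-10) and by 0.42 ± 0.052 in IPO13-/- cells (FDR 4.6e-07), and the interaction of 0.15 did not pass (FDR 0.34). The genotype difference was -0.51 ± 0.05 (FDR 3.5e-09) in untreated and -0.36 ± 0.053 (FDR 2.8e-06) in treated cells. Its exons overlap on the same strand with those of Rcc1, a chromatin-bound exchange factor for the GTPase Ran, so reads in the shared stretch may be counted for neither or either. Rcc1 itself had log2 fold changes of -0.15 and -0.04 after H2O2 in IPO13+/+ and IPO13-/- cells, and -0.12 and -0.01 between the genotypes in untreated and treated cells.

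Snhg5 (chr9:88521050-88522929, minus strand) hosts the pair Snord50a and Snord50b. It was measured at 92.46 and 89.33 CPM in untreated IPO13+/+ libraries and 85.81 and 88.17 after H2O2, and at 79.19 and 72.93 in untreated IPO13-/- libraries and 60.39 and 61.56 after H2O2. The lowest libraries were the treated IPO13-/- ones, below all others. In IPO13-/- cells Snhg5 fell by 0.32 ± 0.047 after H2O2 (FDR 4.8e-06), whereas in IPO13+/+ cells the value was -0.06 (95% interval -0.15 to 0.03, FDR 0.37). The difference between these responses was -0.26 ± 0.065 with an FDR of 0.029. It passed in 6 of the 8 alternatives that keep all libraries, and not with limma-voom (FDR 0.08) or with a minimum of 10 counts. It also passed no longer without any single library of treated IPO13+/+, untreated IPO13-/- or treated IPO13-/- cells, where it lay between -0.32 and -0.22. The genotype difference was -0.26 ± 0.046 (FDR 5.2e-05) in untreated and -0.51 ± 0.047 (FDR 9.9e-10) in treated cells.

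Snhg12 (chr4:132308623-132311024, plus strand) hosts Snora16a, Snora44, Snora61 and Snord99. Its CPM was 33.85 and 34.83 in untreated IPO13+/+ libraries and 35.99 and 37.1 after H2O2, against 31.08 and 29.85 in untreated IPO13-/- libraries and 29.91 and 30.42 after H2O2. Relative to its level, its spread over all libraries was the narrowest of the 5 hosts. H2O2 gave 0.09 in IPO13+/+ (95% interval -0.01 to 0.18, FDR 0.2) and -0.02 in IPO13-/- cells (95% interval -0.11 to 0.08, FDR 0.88). It was lower in IPO13-/- cells by -0.17 ± 0.049 (log2, FDR 0.0063) untreated and -0.28 ± 0.049 (FDR 5.2e-05) treated. The untreated call was lost with library totals in place of TMM factors (-0.09, FDR 0.16) and without untreated IPO13-/- replicate 2 (-0.14, FDR 0.09).

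Neat1 (chr19:5824708-5845478, minus strand), the paraspeckle scaffold, showed the largest rise of the 9 in IPO13+/+ cells. It went from 53.86 and 57.61 CPM to 106.3 and 109.2 there, and from 44.45 and 35.37 to 65.7 and 56.24 in IPO13-/- cells. The treated IPO13-/- libraries overlapped with the untreated IPO13+/+ ones, and the 4 treated libraries did not overlap between the genotypes. The rise was 1.93-fold in IPO13+/+ (log2 0.95 ± 0.069, FDR 1.8e-11) and 1.52-fold in IPO13-/- cells (0.61 ± 0.072, FDR 1.6e-07). The interaction of -0.34 ± 0.1 had an FDR of 0.062. It passed in 3 of the 8 alternatives that keep all libraries, among them relative log expression factors (FDR 0.038) and library totals (FDR 0.016). In the others it did not pass, with an FDR of up to 0.48. Without untreated IPO13+/+ replicate 2 it was -0.39, and without treated IPO13-/- replicate 1 it was -0.47. Without untreated IPO13-/- replicate 1 it shrank to -0.18, and without treated IPO13-/- replicate 2 to -0.25. Neat1 was lower in IPO13-/- cells by -0.48 ± 0.072 (FDR 5e-06) untreated and -0.82 ± 0.069 (FDR 2.5e-10) treated. The counts do not separate its short and long forms.

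Malat1 (chr19:5795690-5802672, minus strand), the neighbour of Neat1 on chromosome 19, had 493.1 and 492.5 CPM in untreated IPO13+/+ libraries and 501.4 and 542.7 after H2O2, and 477.8 and 444.8 in untreated IPO13-/- libraries and 492.9 and 382.6 after H2O2. The treated IPO13-/- libraries lay further apart than any other pair of this gene. After H2O2 the log2 change was 0.08 in IPO13+/+ (95% interval -0.05 to 0.21, FDR 0.42) and -0.08 in IPO13-/- cells (95% interval -0.2 to 0.05, FDR 0.46). The genotype difference was -0.10 in untreated cells (95% interval -0.22 to 0.03, FDR 0.29) and -0.25 ± 0.066 in treated cells (FDR 0.0029). The treated call was lost without treated IPO13-/- replicate 2 (-0.08, FDR 0.29), without treated IPO13+/+ replicate 2 (-0.20, FDR 0.086) and with DESeq2 (FDR 0.13). Without treated IPO13-/- replicate 1, Malat1 fell after H2O2 in IPO13-/- cells (-0.26, FDR 0.00099) and the interaction passed (-0.37, FDR 0.0056).

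Pvt1 (chr15:62037986-62378096, plus strand) rose after H2O2 in both genotypes. It had 14.64 and 13.03 CPM in untreated IPO13+/+ libraries and 22.03 and 21.83 after H2O2, and 10.1 and 9.004 in untreated IPO13-/- libraries and 17.37 and 16.23 after H2O2. Treated libraries lay above all untreated ones, and within each condition IPO13-/- lay below IPO13+/+. The rise was 1.59-fold in IPO13+/+ (log2 0.67 ± 0.065, FDR 5.7e-09) and 1.75-fold in IPO13-/- cells (0.81 ± 0.07, FDR 4.9e-10), with an interaction of 0.14 (95% interval -0.04 to 0.33, FDR 0.53). The genotype difference was -0.53 ± 0.071 (FDR 8.8e-07) in untreated and -0.38 ± 0.064 (FDR 2.1e-05) in treated cells. Its neighbour Myc, a growth-promoting transcription factor, was also lower in IPO13-/- cells, by -0.61 ± 0.048 (FDR 6.4e-11) untreated and -0.66 ± 0.049 (FDR 2e-11) treated. Myc had values of -0.01 (FDR 0.9) and -0.06 (FDR 0.41) after H2O2 in IPO13+/+ and IPO13-/- cells.

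Trp53cor1 (chr17:29057430-29079179, minus strand) was near the limit of these libraries. Its raw counts were 23 and 15 in untreated IPO13+/+ libraries and 30 and 23 after H2O2, and 6 and 9 in untreated IPO13-/- libraries and 5 and 12 after H2O2. These are between 0.07722 and 0.4409 CPM, and no IPO13-/- library reached the lowest IPO13+/+ library. It was lower in IPO13-/- cells by a log2 fold change of -1.33 ± 0.46 (FDR 0.024) untreated and -1.51 ± 0.42 (FDR 0.0051) treated. The untreated call was lost with DESeq2 (FDR 0.1) and without untreated IPO13+/+ replicate 1 (-0.96, FDR 0.22), untreated IPO13-/- replicate 1 (-0.91, FDR 0.29) or replicate 2 (-1.78, FDR 0.052). The treated call was lost without treated IPO13+/+ replicate 1 (-1.30, FDR 0.072) or treated IPO13-/- replicate 1 (-0.99, FDR 0.12). After H2O2 its values were 0.48 (95% interval -0.2 to 1.15, FDR 0.38) in IPO13+/+ and 0.30 (95% interval -0.8 to 1.4, FDR 0.76) in IPO13-/- cells, and neither interval leaves out a change of the size seen for Neat1. Its neighbour Cdkn1a rose after H2O2 by 0.81 ± 0.047 (FDR 2e-13) in IPO13+/+ and 1.31 ± 0.052 (FDR 3.8e-17) in IPO13-/- cells, with an interaction of 0.50 ± 0.07 (FDR 7.1e-05). Cdkn1a was lower in IPO13-/- cells by -1.10 ± 0.052 untreated (FDR 1.3e-15) and -0.60 ± 0.047 treated (FDR 6e-11). A transcript on the opposite strand overlaps Trp53cor1, and no source says whether the counting used strand.

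**Figure D3:**
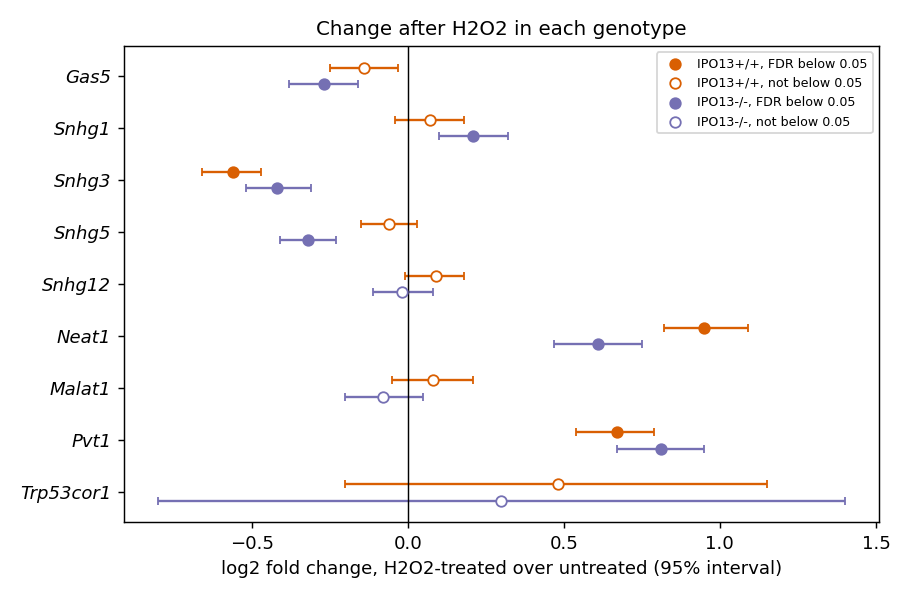
Log2 fold changes of H2O2-treated over untreated cells are plotted on the horizontal axis for the 9 RNAs, in orange for IPO13+/+ and purple for IPO13-/- cells, with 95% intervals as bars. Filled points have an FDR below 0.05. Neat1 and Pvt1 lie right of 0 and Snhg3 left of 0 in both genotypes, while Gas5, Snhg1 (0.07 and 0.21) and Snhg5 (-0.06 and -0.32) are filled in IPO13-/- cells alone.

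Of the snoRNAs inside the hosts, 7 symbols had a row of their own and 6 had counts, and Mir5117, which GENCODE types as a snoRNA, was listed at 0. Snord47, in Gas5, was lowest in treated IPO13-/- cells. It had 6.021 and 5.81 CPM in untreated IPO13+/+ libraries and 6.114 and 7.292 after H2O2, and 4.82 and 4.397 in untreated IPO13-/- libraries and 3.305 and 2.7 after H2O2. The groups did not overlap in any comparison. Snord47 fell by 0.62 ± 0.11 after H2O2 in IPO13-/- cells (FDR 7.4e-05), and in IPO13+/+ cells the log2 change was 0.18 (95% interval 0.0 to 0.36, FDR 0.16). The interaction was -0.80 ± 0.14 (FDR 0.0012), and it was lost without untreated IPO13-/- replicate 1 (-0.75, FDR 0.13). The genotype difference was -0.36 ± 0.096 (FDR 0.0041) in untreated cells, lost without untreated IPO13-/- replicate 2 (-0.29, FDR 0.11), and -1.16 ± 0.1 (FDR 8e-10) in treated cells, more than 2-fold. The host Gas5 itself had -0.49 in that last comparison, and the difference between the 2 was not tested.

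Of the snoRNA rows of Snhg12, Snora61 and Snord99 had the opposite sign to their host in the genotype comparisons, and Snora16a had the same sign. Snora61 was higher in untreated IPO13-/- cells (0.35 ± 0.11, FDR 0.0089), with 3.651 and 2.898 CPM in IPO13+/+ against 4.384 and 3.946 in IPO13-/- libraries, while Snhg12 was lower. That call was lost with DESeq2 (FDR 0.073) and without untreated IPO13+/+ replicate 2 (0.20, FDR 0.21) or untreated IPO13-/- replicate 1 (0.29, FDR 0.16). In treated cells Snora61 stood at 0.28 ± 0.11 (FDR 0.043), a call lost with limma-voom (FDR 0.09) and DESeq2 (FDR 0.19). Snord99 was likewise higher in untreated IPO13-/- cells, by 0.51 ± 0.12 (FDR 0.0016), a call lost without untreated IPO13-/- replicate 1 (0.41, FDR 0.062), and stood at 0.19 (FDR 0.26) in treated cells. Its CPM was 1.818 and 1.77 in untreated IPO13+/+ and 2.72 and 2.352 in untreated IPO13-/- cells. Snora16a was lower, by -0.37 ± 0.13 (FDR 0.024) untreated and -0.48 ± 0.13 (FDR 0.0045) treated, and the first call was lost with limma-voom (FDR 0.057), with DESeq2 (FDR 0.14) and without untreated IPO13-/- replicate 2 (-0.27, FDR 0.23). The second was lost without treated IPO13+/+ replicate 2 (-0.32, FDR 0.15). Snora44 passed in no comparison and had between 67 and 115 counts per library. Snord22, in Snhg1, had 10.3 and 9.721 CPM in untreated IPO13+/+ libraries and 10.96 and 12.96 after H2O2, and 9.586 and 7.345 in untreated IPO13-/- libraries and 8.88 and 9.586 after H2O2. It rose by 0.26 ± 0.089 in IPO13+/+ cells (FDR 0.034), a call lost with limma-voom (FDR 0.11), with DESeq2 (FDR 0.087) and without treated replicate 2 (0.13, FDR 0.51). Between the genotypes Snord22 had -0.23 in untreated (FDR 0.053) and -0.37 ± 0.091 in treated IPO13-/- cells (FDR 0.0016), the latter lost without treated IPO13+/+ replicate 2 (-0.25, FDR 0.1). Mature snoRNAs have no poly(A) tail, and reads over a snoRNA may stem from host RNA that keeps the intron, which the counts cannot separate. Annotated isoforms of that kind cover 3760 of the 4118 bases of Gas5 and all 2402 of Snhg12.

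**Figure D4:**
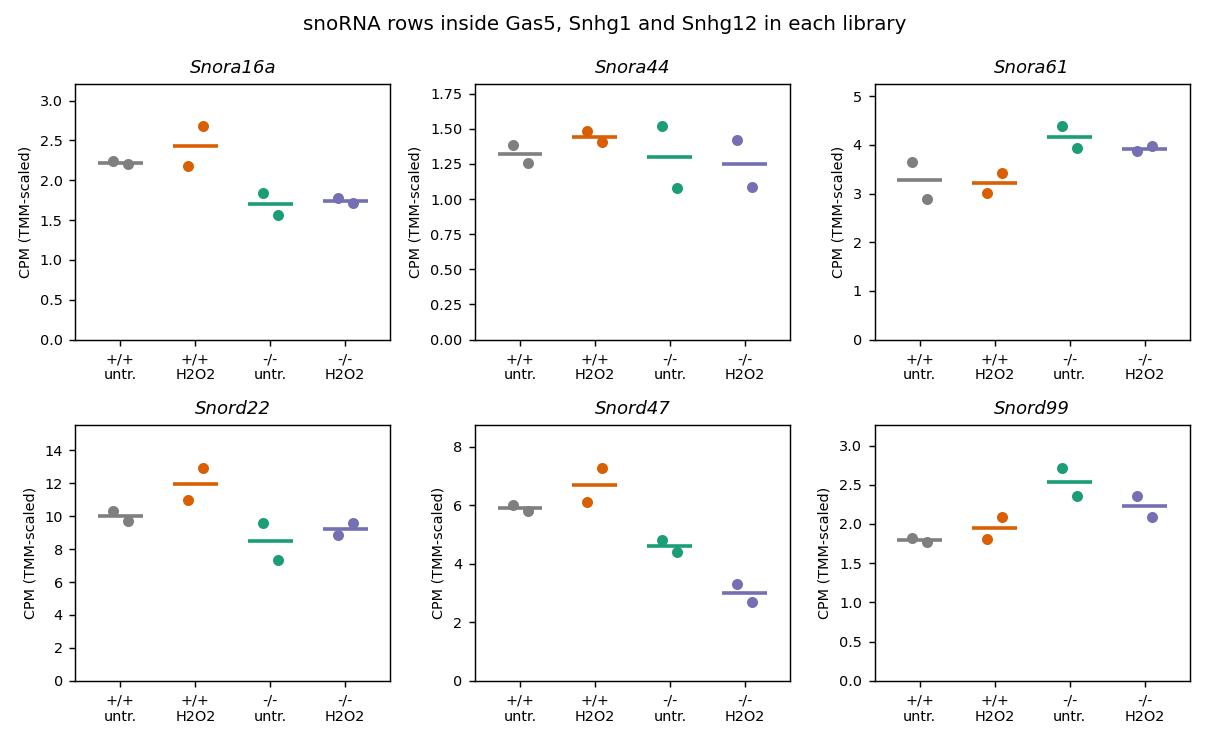
Each panel plots 1 snoRNA row, with TMM-scaled CPM from 0 on the vertical axis, the 4 groups on the horizontal axis, the 2 libraries as points and their mean as a bar. Snord47 stood at 3.305 and 2.7 CPM in treated IPO13-/- cells and at 4.397 or more in all other libraries.

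Other long non-coding hosts of snoRNAs, of which 15 of 16 listed had a row, were mostly lower in IPO13-/- cells. Among genes of at least 10 CPM, 30.9% were lower and 23% higher in untreated IPO13-/- cells, and 23.5% lower and 26.7% higher in treated ones, and the counts of this and the following lists stand beside these shares. In untreated IPO13-/- cells 9 were lower, 2 higher and 4 did not pass, with a median log2 fold change of -0.30. In treated cells 9 were lower, 1 was higher and 5 did not pass, with a median of -0.33. Dancr, an RNA known to hold back differentiation, was lower by -0.65 ± 0.08 (FDR 2.3e-07) in untreated and -0.60 ± 0.084 (FDR 1.4e-06) in treated cells. Snhg4 was lower by -0.59 ± 0.065 (FDR 3e-08) and -0.37 ± 0.071 (FDR 0.00013), and Snhg18 was higher by 0.64 ± 0.17 (FDR 0.003) and 0.95 ± 0.19 (FDR 0.00017). After H2O2, 6 fell and 9 did not pass in IPO13+/+ cells, with Snhg4 at -0.68 ± 0.065 (FDR 4.3e-09). In IPO13-/- cells 4 fell, 1 rose and 10 did not pass, with Snhg7 at -0.47 ± 0.078 (FDR 3.3e-05). The shares of genes of at least 10 CPM that rose and fell, 13.2% and 25.2% in IPO13+/+ and 21.5% and 22.8% in IPO13-/- cells, likewise stand beside the counts of all lists.

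Protein-coding hosts of snoRNAs, most of them ribosomal protein and translation factor genes, had medians nearer to 0. In untreated IPO13-/- cells 18 of 20 were lower, 1 was higher and 1 did not pass, with a median of -0.19, and Tpt1, a translationally controlled growth gene, stood at -0.30 ± 0.044 (FDR 3.9e-06). In treated cells 4 were lower, 1 was higher and 15 did not pass, with a median of -0.05. The higher one was Rpl7a, a protein of the large ribosomal subunit, at 0.37 ± 0.039 (FDR 1.5e-08). After H2O2, 13 rose and 1 fell in IPO13-/- cells, among them Rps3 (0.25 ± 0.052, FDR 0.00049), and in IPO13+/+ cells 3 fell and 17 did not pass. In the interaction 1 of 20 passed, where 2.71% of all genes did, the elongation factor Eef2 (0.16 ± 0.043, FDR 0.044), and that call was lost with limma-voom (FDR 0.061), with DESeq2 (FDR 0.14) and with library totals (0.09, FDR 0.33).

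Genes for proteins that bind or remove these RNAs had medians between -0.13 and 0.01 in the genotype comparisons. All values are of their RNA, and protein was not measured. Of 18 genes for snoRNP proteins and their assembly, 8 were lower and 2 higher in untreated IPO13-/- cells (median -0.08), and 4 were lower and 3 higher in treated ones (median 0.01). Nop10, an H/ACA core protein, was higher by 0.21 ± 0.046 (FDR 0.00051) and 0.31 ± 0.046 (FDR 4.1e-06). H2O2 lowered 5 in IPO13+/+ cells, and in IPO13-/- cells 2 rose and 2 fell. Of 14 nonsense-mediated decay factors, 7 were lower and 1 higher in untreated (median -0.13), and 4 lower and 2 higher in treated IPO13-/- cells (median -0.04). Upf1, the helicase of that pathway, was lower by -0.19 ± 0.041 (FDR 0.00044) and -0.16 ± 0.041 (FDR 0.0025). Upf2, of the same list, was higher by 0.25 ± 0.049 (FDR 0.00018) and 0.21 ± 0.049 (FDR 0.0009). After H2O2, 1 of the 14 rose and 2 fell in IPO13+/+ cells, and 3 rose in IPO13-/- cells. Of 16 genes for paraspeckle proteins, 5 fell and 11 did not pass in IPO13+/+ cells, where Neat1 rose (median -0.08). In IPO13-/- cells 1 rose and 5 fell (median -0.05). Tardbp, the gene of the RNA-binding protein TDP-43, fell by 0.22 ± 0.037 (FDR 6.3e-05) and by 0.26 ± 0.037 (FDR 3.1e-06). Between the genotypes 6 of these 16 genes were lower and 1 higher in untreated, and 5 lower and 1 higher in treated IPO13-/- cells.

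**Figure D5:**
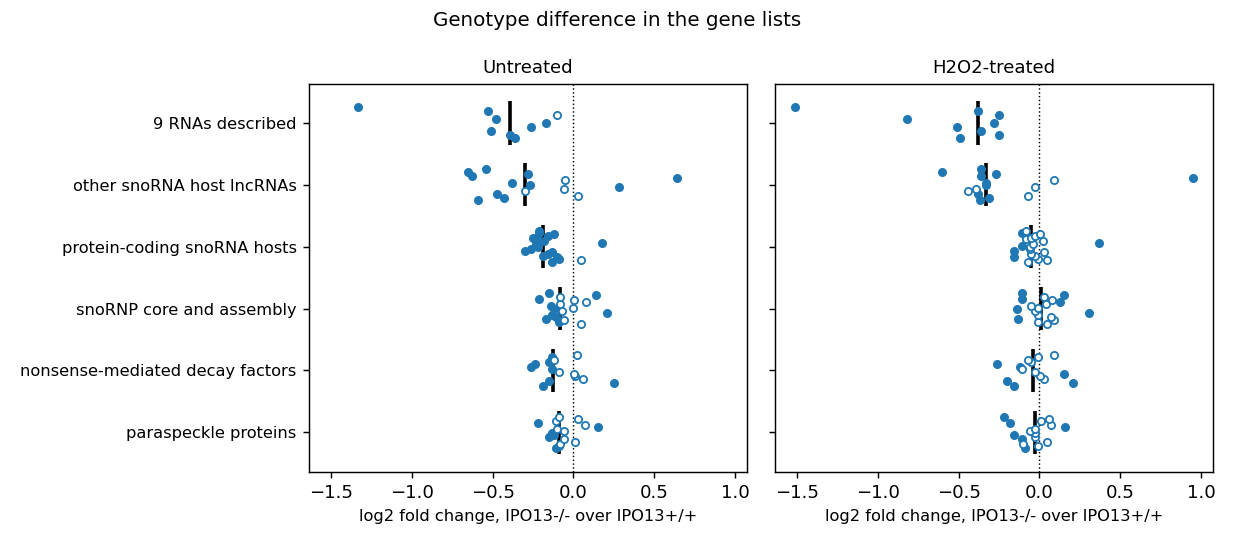
Each point is a gene of the list named at the left, plotted by its log2 fold change of IPO13-/- over IPO13+/+ cells in untreated (left) and H2O2-treated cells (right), filled where the FDR is below 0.05, with a black bar at the median of the list. The medians of the 9 RNAs (-0.39 and -0.38) and of the other long non-coding hosts (-0.30 and -0.33) lie further below 0 than those of the plotted lists of protein-coding genes. Of the lists not plotted, the p53 list (-0.33 and -0.22) and the other long non-coding RNAs (-0.15 and -0.34) came near them. The 6 trophectoderm markers lay lower, at -0.61 and -0.60, and the 7 primitive endoderm markers at -0.33 and -0.15.

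In a list of 22 genes, p53 targets and Trp53 itself, 19 rose in IPO13+/+ cells and 19 in IPO13-/- cells after H2O2, with medians of 0.80 and 0.87. Of the 22, 14 were lower and 2 higher in untreated IPO13-/- cells (median -0.33). In treated ones 14 were lower and 2 higher (median -0.22), which need not be the same genes. In the interaction 8 passed, all 8 with a more positive response in IPO13-/- cells, where 2.71% of all genes passed. Of genes of at least 10 CPM, 3.77% passed in that direction and 0.858% in the other. Under the 8 alternatives that keep all libraries, the interaction of Cdkn1a passed in 8 and that of Bbc3 in 3. Of 22 other long non-coding RNAs with a row, 4 rose and 2 fell in IPO13+/+ cells, and 2 rose and 6 fell in IPO13-/- cells. Between the genotypes 8 were lower and 4 higher in untreated IPO13-/- cells (median -0.15). In treated ones 9 were lower and 5 higher (median -0.34). H19, an imprinted RNA, was higher by 1.42 ± 0.067 (FDR 1.6e-15) untreated and 1.18 ± 0.066 (FDR 5.9e-14) treated. Rpph1, the RNA of RNase P, rose by 0.67 ± 0.12 (FDR 7.1e-05) in IPO13+/+ and by 1.26 ± 0.1 (FDR 1.9e-10) in IPO13-/- cells. Of 14 genes that lie beside the 9 RNAs, 3 rose and 5 fell in IPO13+/+ and 3 rose and 4 fell in IPO13-/- cells, while 6 were lower in untreated IPO13-/- cells and 4 lower and 1 higher in treated ones. Frmd8, near Neat1, rose with it by 0.40 ± 0.043 (FDR 3.5e-08) in IPO13+/+ and by 0.57 ± 0.043 (FDR 3.9e-11) in IPO13-/- cells. Slc3a2, an amino acid transporter subunit beside Snhg1, rose by 0.11 ± 0.038 (FDR 0.027) and 0.21 ± 0.038 (FDR 8.1e-05), the first lost without either treated IPO13+/+ library (FDR 0.14 and 0.17). Zbtb37, whose gene overlaps the start of Gas5 on the opposite strand, had -0.07 (FDR 0.62) in IPO13+/+ cells and fell by 0.27 ± 0.086 in IPO13-/- cells (FDR 0.016), a call lost without treated replicate 2 (-0.11, FDR 0.48).

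Across the 8 libraries, profiles were compared for the 8 RNAs of at least 1 CPM, all but Trp53cor1. Gas5 and Snhg5 followed each other most closely (Pearson r = 0.97 on log2 CPM), as did Neat1 and Pvt1 (0.95). Snhg3 had values of 0.84 with Snhg5, 0.83 with Gas5 and -0.27 with Pvt1. Among 12198 genes of at least 1 CPM, the profile most like that of Gas5 was Amer1 (0.993), that of Snhg5 was Zfyve28 (0.993), and that of Snhg3 was Dlgap5 (0.993). Neat1 was most like Kndc1 (0.993), Pvt1 like Mast4 (0.997), Snhg1 like Eaf1 (0.989), Snhg12 like Taf1a (0.986), and Malat1 like Snord4a (0.961). These values describe 8 libraries in 4 groups, which all genes share, and carry no test.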

How the data were processed

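RNA-seq libraries of poly(A)-selected RNA were analysed, 2 for each of 4 groups, with groups taken from the labels. Per the labels, the submitters' processing notes name bcl2fastq, STAR 2.3.1, HTSeq, limma and the build mm10, and the annotation and strand setting are not given in the sources used here. The authors deposited raw counts per gene symbol, without normalization, and CPM, which equal each count divided by the library total (checked to within 0.0005). The counts were used for all tests. In R 4.3.3, the 19424 genes with at least 1 count were fitted in 1 model of all 8 libraries with edgeR 4.0.16 (TMM factors, quasi-likelihood test), with Benjamini-Hochberg adjustment over all of them and a threshold of 0.05. Standard errors are the absolute log2 fold change over the square root of F. The 95% intervals apply the normal distribution to these standard errors, so they are somewhat narrower than the test itself would give. The biological coefficient of variation was 3.36%. Replicates differed by more than counting noise in every group, and by unequal amounts. The chi-square per gene was 15.024 in untreated and 2.265 in treated IPO13+/+ cells, and 4.585 and 6.589 in untreated and treated IPO13-/- cells. The model shares the spread of a gene over all groups, so its standard errors do not follow this inequality. An exact permutation test of 2 against 2 libraries cannot go below 0.333. Fold changes of 2 or more were counted separately. Alternatives were limma-voom (limma 3.58.1, named in the processing notes), DESeq2 1.42.0, other size factors and filters, the replicate number as a block, fits of 4 libraries, and leaving out each library. The scripts were tested on simulated data.

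The 9 RNAs and all lists were chosen with earlier results of these data known, so lists are described by counts and medians, with no test of a list. Named are the 9 RNAs, hosted snoRNAs, some of the neighbouring genes, up to 6 genes of a list with the largest change among those that passed, and for each RNA the 2 genes with the most similar profile, of which the first is given. Positions are those of GENCODE M21 (GRCm38), and 21712 symbols were found there.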

Additional observations from a re-analysis of the deposited data

Results flagged for a closer look

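Looked through were the 9 RNAs, the 6 hosted snoRNAs with counts, 14 neighbours, 15 other long non-coding hosts and 22 other long non-coding RNAs. Of these, 6 had a response to H2O2 that differed between the genotypes in the test of the interaction by edgeR. Of all tested genes 2.71% did. Snhg5 had an interaction of -0.26 on the log2 scale, falling in IPO13-/- cells. Snord47 had -0.80, Cdkn1a 0.50, Mir22hg 0.73, Mirg -0.54 and Rpph1 0.59. Mir22hg, a host of a microRNA, had log2 changes of -0.09 (FDR 0.5) in IPO13+/+ and 0.63 (FDR 2.6e-06) in IPO13-/- cells. Mirg, a maternally expressed RNA of an imprinted cluster, had -0.22 (FDR 0.098) and -0.77 (FDR 5.7e-06). The interactions of Mirg and Rpph1 were lost with limma-voom (FDR 0.13 and 0.23) and with DESeq2 (FDR 0.26 and 0.49). That of Mir22hg was lost without untreated IPO13-/- replicate 1 (0.68, FDR 0.072), and that of Snord47 without the same library (-0.75, FDR 0.13).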

How the results depend on the processing

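The counts of the 9 RNAs past the threshold stayed within 1.5 times of those reported under every alternative run for the responses in each genotype and the genotype differences. The count for the interaction, 1 by edgeR on all libraries, was 0 with limma-voom and with a minimum of 10 counts, 2 with relative log expression factors, 2 with library totals and 2 with the replicate block. Leaving out single libraries gave between 0 and 2. With the replicate block the interaction of Neat1 passed (FDR 0.0004), and the response of Gas5 in IPO13+/+ cells passed (-0.14, FDR 0.0042). Same-numbered libraries deviated together in some pairs of groups and not in others (correlations between -0.089 and 0.638 over 8620 genes), so the numbers were not taken as pairs. No value of the 9 RNAs that passed changed its sign under any alternative. Scaling by library totals moved the median of all genes by 0.081 in the untreated genotype comparison and by less in the others. Leaving out a library leaves 1 in its group, which is then assumed to vary like the others. Depth limits Trp53cor1 and the snoRNA rows, which have from 5 to 30 and from 67 to 896 counts per library.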
